A study of Homo sapiens with 12 samples.

Results

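The secretory pathway and unfolded protein response (UPR) genes of the endoplasmic reticulum (ER) described here are 46 genes, taken by their symbols from a table of 59276 genes. The rule used the symbols alone, but the list of symbols was chosen with earlier results of these data known. All 46 were found and were above 0 in every sample. They were measured by RNA sequencing in JJN3, a human multiple myeloma cell line, in 12 samples that form 4 groups of 3 replicates. The DMSO group received the solvent alone, and the MS023 group received 10 µM MS023, an inhibitor of type I protein arginine methyltransferases (PRMTs), for 3 days. The isgCtrl and PRMT1-KO groups were JJN3 cells with lentiviral Cas9 and mCherry and a second, puromycin-selected lentivirus with a doxycycline-inducible guide. That guide was a control in isgCtrl and targeted PRMT1, the main enzyme of asymmetric arginine dimethylation, in PRMT1-KO (guide iPRMT1_1), and doxycycline was given for 3 days. Only 1 PRMT1 guide was sequenced. The cells were selected pools that may still hold unedited cells. The DMSO and MS023 cells are described without Cas9, lentivirus, puromycin or doxycycline, so each treatment was compared with its own control.

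Myeloma cells descend from plasma cells, which are specialised for secretion and carry an extensive ER. Secretory proteins enter the ER through the Sec61 translocon, lose their signal peptide, fold with chaperones and disulfide isomerases, and leave in COPII vesicles, while misfolded proteins are returned to the cytosol and degraded. When unfolded protein accumulates, the sensors IRE1 (gene ERN1), PERK (EIF2AK3) and ATF6 start the UPR, in which ATF6 and spliced XBP1 raise the transcription of many of these genes and PERK acts through translation and ATF4.

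ATF6 and XBP1 act through short promoter elements, and the stretches that carry them in the members are shown as a description. The RefSeq windows used run from 250 bases before to 50 bases after each annotated start on GRCh38.p14, and 43 of the 46 members had one (52 windows, since some genes have several starts). SPCS1, SEC24D and KDELR2 had none. The ER stress response element was searched on both strands as CCAAT, 9 bases of any kind and CCACG. It was in 5 of 43 members (11.6%), against 0.0916% of 27305 genes and 0.0769% of 35116 windows. A shorter form, element II, was searched as ATTGG, any base and CCACG, a search added after the data had been seen. Element II was in 3 of 43 members (6.98%), against 0.0696% of all genes and 0.0541% of windows. The UPR element TGACGTGG was in 5 of 43 members (11.6%), against 0.927% of all genes and 0.729% of windows. ATTGG is CCAAT on the other strand, and the UPR element read on the other strand begins with CCACG, so the searches share letters. A match is a description of the letters, not evidence of binding in JJN3 cells. The members are listed as genes of the response that acts through these elements. A share above that of all genes is therefore no result of these data. In the stretches below, written 5′ to 3′ on the strand of the gene, capitals mark the element. Those with the ER stress response element were as follows.
HSPA5, chr9:125241386-125241414, minus strand: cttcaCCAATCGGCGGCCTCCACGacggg
HSP90B1, chr12:103930211-103930239, plus strand: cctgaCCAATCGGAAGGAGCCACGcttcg
HSP90B1, chr12:103930316-103930344, plus strand: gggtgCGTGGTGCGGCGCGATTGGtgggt
PDIA6, chr2:10812848-10812876, minus strand: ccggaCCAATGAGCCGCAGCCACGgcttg
CRELD2, chr22:49918549-49918577, plus strand: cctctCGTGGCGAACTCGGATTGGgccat
ERO1B, chr1:236282178-236282206, minus strand: gcccgCGTGGTCCCGCCTCATTGGccgcc
Those with element II were as follows, and in the first HYOU1 stretch a UPR element overlaps it.
HERPUD1, chr16:56932016-56932044, plus strand: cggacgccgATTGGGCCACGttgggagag
HYOU1, chr11:119057372-119057401, minus strand: tggccccgTGACGTGGTCCAATcccaggcc
HYOU1, chr11:119057265-119057293, minus strand: ggcctgggaCGTGGTCCAATgagtacgcg
SDF2L1, chr22:21642105-21642133, plus strand: cctcggaagCGTGGACCAATcaaaaccct
The other UPR elements were in KDELR3, SEC62, SSR3 and SSR4, of which KDELR3 is shown.
KDELR3, chr22:38468039-38468068, plus strand: ggccgccctggCCACGTCAccgcccggcca
In GENCODE v44 on the same build, the HSPA5, ERO1B, HERPUD1, HYOU1, SDF2L1 and KDELR3 stretches lie upstream of the gene. The PDIA6 and CRELD2 stretches lie in an intron and the HSP90B1 stretches in an exon of some annotated transcript.

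The targeted gene checked the labels. PRMT1 (chr19:49675786-49689029, plus strand) read 867, 863 and 849 TPM in isgCtrl and 302, 309 and 301 TPM in PRMT1-KO, and the PRMT1-KO minus isgCtrl difference was -1.50 (SE 0.04, limma BH-adjusted p = 0.00072). In the inhibitor arm PRMT1 mRNA averaged 653 ± 18.3 TPM in DMSO and 673 ± 23.6 TPM in MS023. Between 20988 and 22241 genes were above 0 in a sample. The labels give only a minimum number of read pairs for every sample, and TPM add up to 1000000 in each, so the depth behind a value is unknown. Of 7 plasma cell markers, 6 exceeded 1 TPM in some sample, with summed levels of 386 to 423 TPM in DMSO, 479 to 521 TPM in MS023, 408 to 416 TPM in isgCtrl and 399.5 to 408 TPM in PRMT1-KO. The exception was CD27, at 0.125 TPM at most. Single markers moved apart within these sums, since SLAMF7 averaged 9.32 TPM in DMSO, 52.2 TPM in MS023, 0.369 TPM in isgCtrl and 0.463 TPM in PRMT1-KO, and CD38 averaged 4.96, 2.24, 1.33 and 0.891 TPM. IRF4 averaged 95.1, 109.6, 157 and 145 TPM. Summed B cell markers reached 0.307 TPM, T cell markers 0.583 TPM and myeloid markers 3.01 TPM, the last in MS023. The erythroid list summed to 3.49 to 5.91 TPM in DMSO, 3.75 to 10.4 TPM in MS023, 12.9 to 19.3 TPM in isgCtrl and 8.74 to 13.2 TPM in PRMT1-KO, all but a trace from HBA1 and HBB. The part of these markers in the results was not tested.

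The summed level of the 46 genes was 8520.1 ± 40.4 TPM in DMSO and 11415 ± 146 TPM in MS023 (SD, n = 3), or 0.852% and 1.14% of all TPM. It was 5958 ± 34.5 TPM in isgCtrl and 6186 ± 120.4 TPM in PRMT1-KO (SD, n = 3), or 0.596% and 0.619%. Single members spanned a wide range in DMSO, from a mean of 0.271 TPM for ERO1B to 1631 TPM for SEC61G, with a median of 80.4 TPM. In DMSO, 20 members exceeded 100 TPM and 5 were below 10 TPM. The 5 were KDELR3, ERO1B and the sensors or related genes ERN1, EIF2AK3 and CREB3L2. Levels are per transcript length and so may be compared between genes. Whether a level reflects RNA per cell or the share of cells that express a gene cannot be told apart in bulk RNA.

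**Figure D1:**
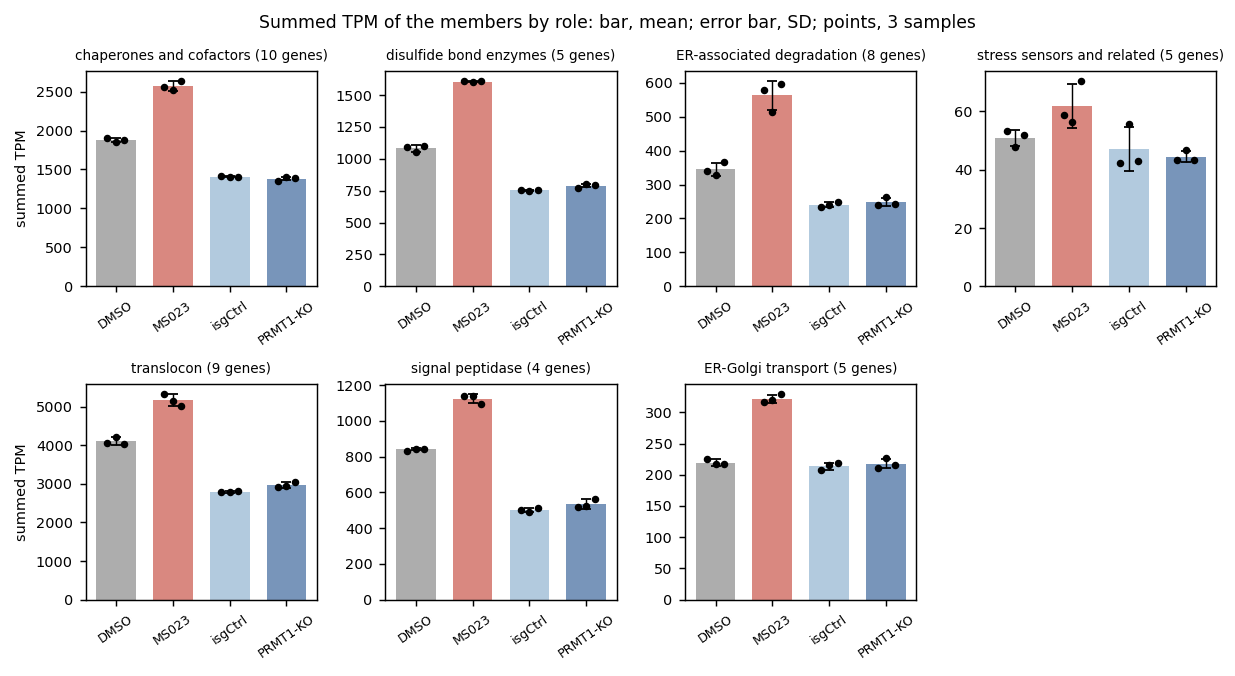
Summed TPM of the members of each role (vertical axis, starting at 0) in the 4 groups, where bars are means, error bars are SD and points are the 3 samples. In all 7 roles the 3 MS023 samples lie above the 3 DMSO samples, while the isgCtrl and PRMT1-KO bars are of similar height. The 3 PRMT1-KO samples still lie above the 3 isgCtrl samples for disulfide bond enzymes, translocon and signal peptidase. They lie below them for chaperones and cofactors and overlap them in the other roles.

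MS023 was compared with DMSO to ask which transcripts change when type I PRMT activity is inhibited. Of the 46 genes, 13 rose and 0 fell. A gene is called here at a Benjamini-Hochberg (BH) adjusted p under 0.05 over all genes tested and an absolute difference of log2(TPM+1) above 0.48. Over all 12903 genes tested, 11.6% were called higher and 19.3% lower, beside 28.3% and 0% of the members. The member counts here include ERO1B, which entered the test only through its MS023 level. Without it, 12 of 45 members were called higher. The members were chosen with earlier results of these data known, so these shares are a description. Without the fold threshold 28 members passed as higher and 0 as lower, against 18.4% and 30.4% of all genes. The median member difference was 0.36, while the median over all genes was -0.11, and 39 of 46 members were above 0, beside 40.9% of all genes. In 30 members all 3 MS023 samples lay above all 3 DMSO samples and in 4 they lay below, against 23.2% and 36.3% of all genes. A two-sided exact permutation test of 3 against 3 samples cannot go below p = 0.1, and each of those 34 members reached that value. Among all genes called, 37.6% were higher, a share that became 49.3% with median-ratio scaling and 49.9% with quantile normalization. The count of members called higher was 22 with median-ratio scaling and 19 with quantile normalization. In these settings 1906 and 1922 of all 12903 genes were called higher, beside 1500 in the main fit. Nothing in the labels says whether replicates were separate cultures. The Methods give a general statement of at least 3 independent experiments, without naming the RNA libraries. The p-values therefore measure the spread between these samples, which may be technical.

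**Figure D2:**
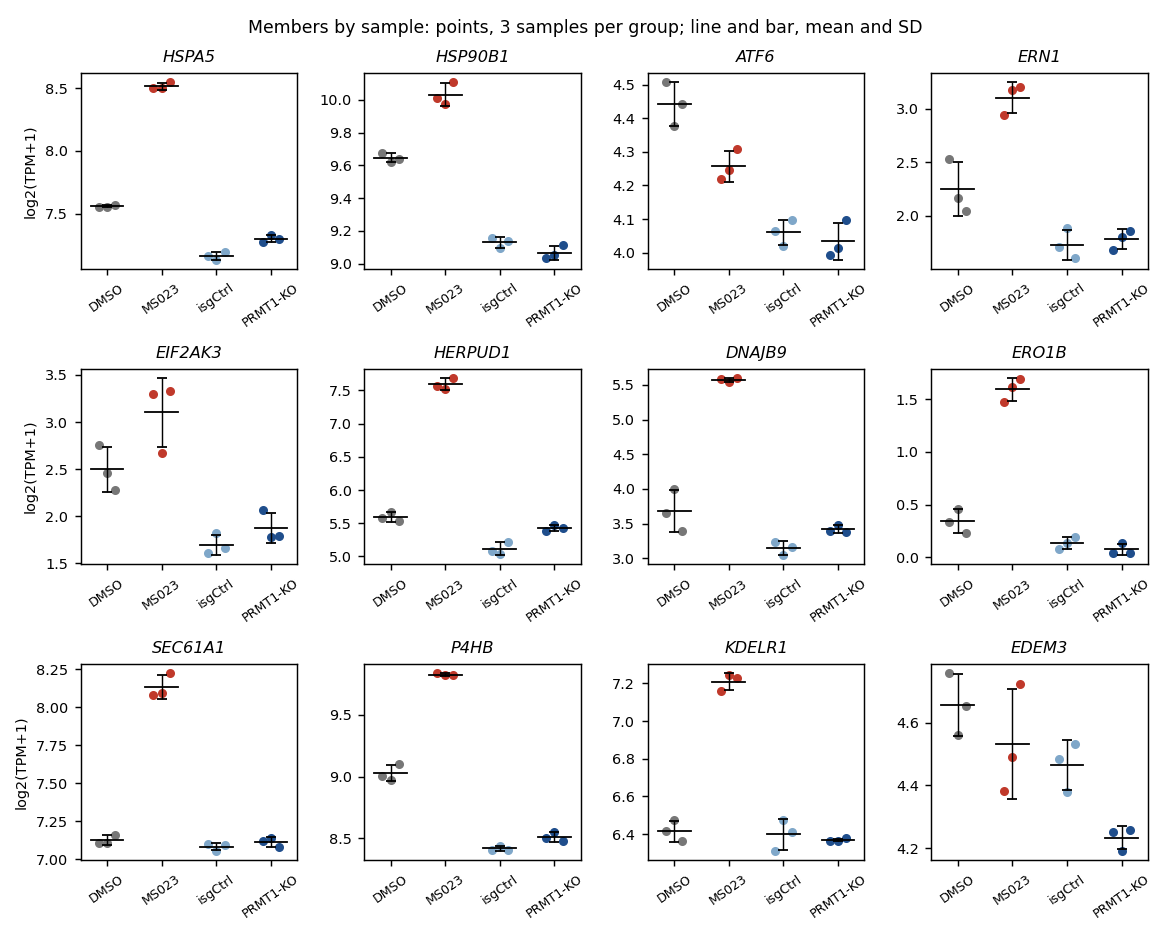
log2(TPM+1) (vertical axes, which differ between panels and do not start at 0) of 12 members in the 4 groups, where points are the 3 samples and the line and bar are the mean and SD. In HSPA5, HERPUD1, DNAJB9, SEC61A1, P4HB and KDELR1 the 3 MS023 samples stand above all other samples, while in ATF6 they lie below the DMSO samples and in EDEM3 they overlap them.

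The counts by role that follow stand beside 11.6% of all genes called higher and 18.4% that passed the adjusted p as higher at any size. Of the chaperones and their cofactors, 3 of 10 were called higher and 9 of 10 passed the adjusted p as higher whatever the size of the difference. HSPA5 (chr9:125234853-125241382, minus strand) encodes BiP, the Hsp70 chaperone of the ER lumen that also holds the UPR sensors inactive. HSPA5 read 187, 187 and 189.6 TPM in the 3 DMSO samples and 361, 361 and 373 TPM in the 3 MS023 samples. Its 2 groups of 3 did not overlap, the ratio of mean TPM was 1.94, and the difference was 0.95 (SE 0.06, limma BH-adjusted p = 0.000129). DNAJB9 (chr7:108569867-108574850, plus strand), the BiP co-chaperone ERdj4, had the second largest rise of all members. DNAJB9 read 11.6, 15.1 and 9.55 TPM in the 3 DMSO samples and 46.9, 45.5 and 47.5 TPM in the 3 MS023 samples, a ratio of 3.87 and a difference of 1.89 (SE 0.15, limma BH-adjusted p = 0.000332). The MS023 samples of DNAJB9 lay within a narrow band far above the DMSO samples. DNAJC3, the co-chaperone p58IPK that also inhibits PERK, averaged 13.0 ± 1.01 TPM in DMSO and 21.8 ± 0.875 TPM in MS023, with a difference of 0.70 (SE 0.08, limma BH-adjusted p = 0.000917).

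HSP90B1 (chr12:103930107-103953931, plus strand), the ER Hsp90 protein GRP94, was the most abundant chaperone of the list. HSP90B1 read 818, 788 and 795 TPM in the 3 DMSO samples and 1029.9, 1004 and 1103 TPM in the 3 MS023 samples. Its groups did not overlap and its difference of 0.38 (SE 0.07, limma BH-adjusted p = 0.00451) lay below the fold threshold. The differences of the other chaperones that passed the adjusted p alone were 0.47 for HYOU1, 0.40 for SDF2L1, 0.40 for CRELD2, 0.36 for MANF and 0.28 for DNAJB11. HYOU1 is a nucleotide exchange factor for BiP, and DNAJB11 is a BiP co-chaperone. The remaining member, the prolyl isomerase FKBP11, lay lower in all 3 MS023 samples at 90.1 ± 2.76 TPM against 98.6 ± 2.77 TPM, a difference of -0.13 (SE 0.06, limma BH-adjusted p = 0.132) that did not pass.

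Disulfide bonds are made by protein disulfide isomerases, which the oxidases ERO1A and ERO1B recharge. In this group 2 of 5 genes were called higher and 4 passed the adjusted p at any size of difference. P4HB (chr17:81843159-81860856, minus strand), the archetypal disulfide isomerase, rose. P4HB read 513, 502 and 548 TPM in the 3 DMSO samples and 914, 905 and 903 TPM in the 3 MS023 samples, a ratio of 1.74 and a difference of 0.80 (SE 0.06, limma BH-adjusted p = 0.000298). PDIA6 and PDIA4, other isomerases of the family, differed by 0.36 and 0.31 and passed the adjusted p but not the fold threshold. PDIA6 averaged 416 ± 7.24 TPM in DMSO and 535 ± 1.63 TPM in MS023.

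Of the oxidases, ERO1B (chr1:236214681-236282019, minus strand) was nearly silent in DMSO and rose with MS023. ERO1B read 0.262, 0.375 and 0.176 TPM in the 3 DMSO samples and 1.78, 2.06 and 2.23 TPM in the 3 MS023 samples. No samples overlapped, and the difference was 1.25 (SE 0.09, limma BH-adjusted p = 0.000247). Because its DMSO mean of 0.34 on the log2(TPM+1) scale is below the expression filter, ERO1B entered the test only through MS023 and had to differ. A difference of log2(TPM+1) also understates the change of so low a gene, whose mean TPM had a ratio of 7.47. ERO1A, the more abundant oxidase, averaged 45.5 ± 3.30 TPM in DMSO and 38.4 ± 2.29 TPM in MS023, a difference of -0.24 (SE 0.08, limma BH-adjusted p = 0.0555) that did not pass.

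In ER-associated degradation, 1 of 8 genes was called and 4 passed the adjusted p at any size of difference. The share called, 12.5%, is close to the 11.6% of all genes called higher. That gene, HERPUD1 (chr16:56932142-56944864, plus strand), had the largest rise of the 46 genes. It encodes a membrane protein that joins the ubiquitin ligase complex of this pathway. HERPUD1 read 46.8, 49.9 and 45.3 TPM in the 3 DMSO samples and 188, 182 and 206 TPM in the 3 MS023 samples. The lowest MS023 sample was far above the highest DMSO sample, the ratio was 4.06 and the difference was 2.0 (SE 0.08, limma BH-adjusted p = 5.52e-05). SYVN1, the ligase of the same complex, averaged 21.6 ± 0.555 TPM in DMSO and 30.3 ± 2.87 TPM in MS023, and its difference of 0.47 (SE 0.08, limma BH-adjusted p = 0.0056) lay just under the fold threshold. Its partner SEL1L differed by 0.12 (SE 0.17, limma BH-adjusted p = 0.591). The lectins OS9 and ERLEC1, which recognise misfolded glycoproteins, differed by 0.46 and 0.42 and passed the adjusted p only.

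The EDEM proteins, which trim mannose from glycoproteins to mark them for degradation, did not pass. Their differences were 0.06 for EDEM1, -0.09 for EDEM2 and -0.12 for EDEM3, and the samples of the groups overlapped in each. EDEM3 read 26.1, 22.6 and 24.2 TPM in the 3 DMSO samples and 19.9, 21.5 and 25.4 TPM in the 3 MS023 samples. Its interval ran from -0.39 to 0.14.

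Of the 5 sensors and related genes, 2 were called, 1 of them a UPR sensor. ERN1 (chr17:64039080-64130819, minus strand), which encodes the kinase and endonuclease IRE1 that splices XBP1 mRNA, rose. ERN1 read 4.80, 3.50 and 3.14 TPM in the 3 DMSO samples and 6.67, 8.01 and 8.21 TPM in the 3 MS023 samples. All 3 MS023 samples were above all 3 DMSO samples, the ratio was 2.0 and the difference was 0.85 (SE 0.15, limma BH-adjusted p = 0.0048). EIF2AK3 (chr2:88556741-88691518, minus strand), the kinase PERK, had a larger spread. EIF2AK3 read 5.74, 4.50 and 3.85 TPM in the 3 DMSO samples and 8.86, 5.39 and 9.05 TPM in the 3 MS023 samples. MS023 replicate 2 was below DMSO replicate 1, and the difference of 0.61 (SE 0.21, limma BH-adjusted p = 0.0576) did not pass. Without MS023 replicate 2 the EIF2AK3 difference was 0.82 and passed (limma BH-adjusted p = 0.0128). ATF6 (chr1:161766298-161977574, plus strand), the sensor that is itself released as a transcription factor, lay the other way. ATF6 read 21.8, 19.8 and 20.7 TPM in the 3 DMSO samples and 17.6, 18.0 and 18.8 TPM in the 3 MS023 samples. Its groups did not overlap, and its difference of -0.18 (SE 0.07, limma BH-adjusted p = 0.0613) did not pass. CREB3L2, a related ER-anchored transcription factor, rose from 3.24 ± 0.156 TPM to 5.62 ± 0.399 TPM, a difference of 0.64 (SE 0.07, limma BH-adjusted p = 0.00104). WFS1, a membrane protein of the ER, differed by 0.28 (SE 0.16, limma BH-adjusted p = 0.206).

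**Figure D3:**
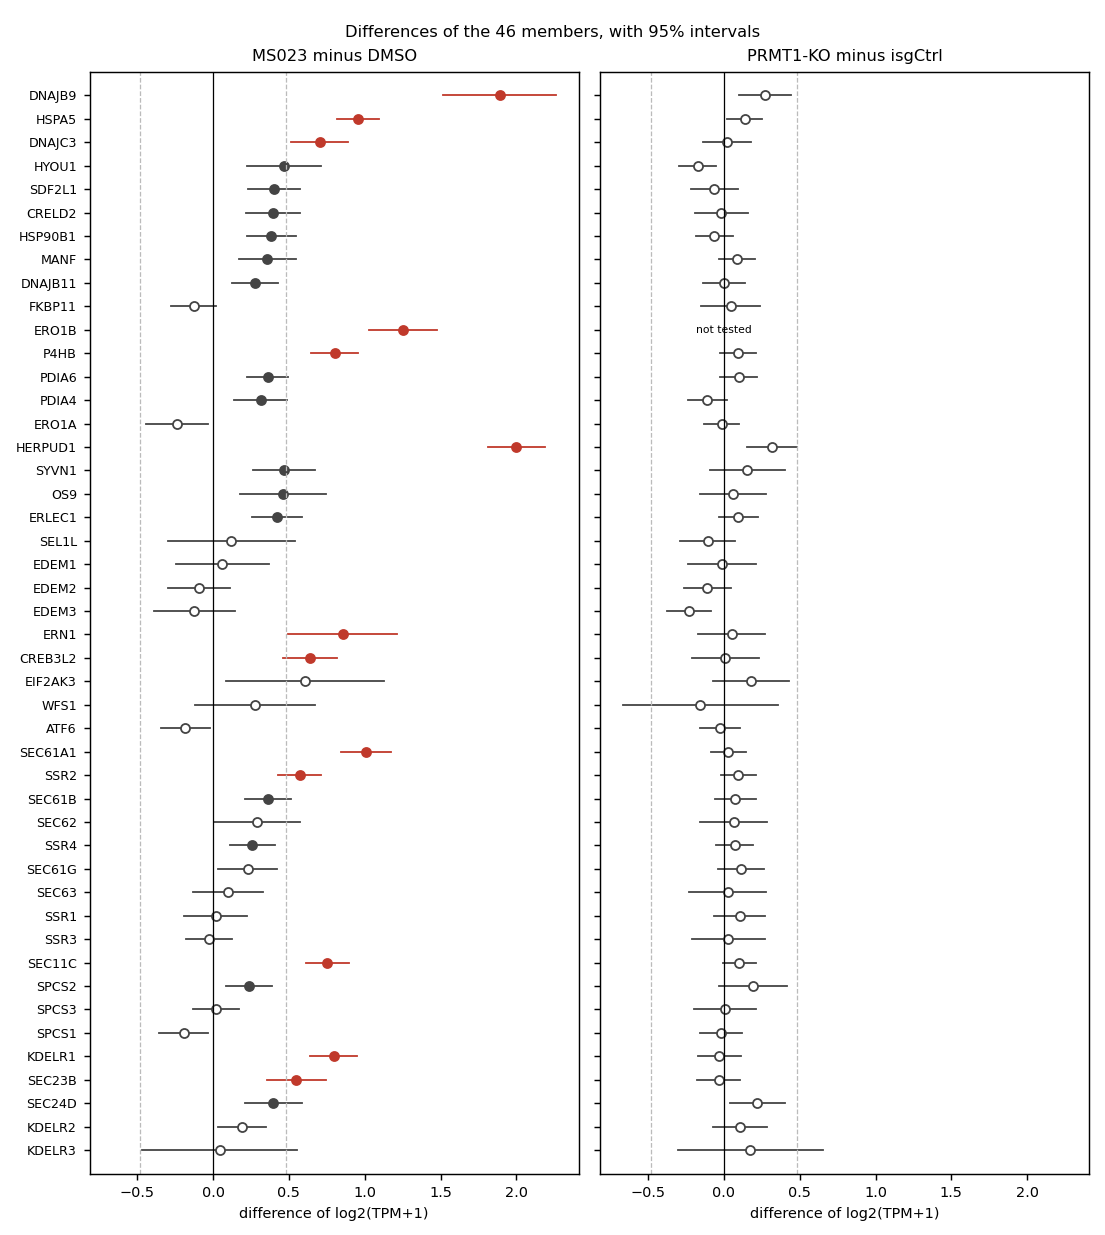
Difference of log2(TPM+1) (horizontal axis) of each member with its 95% interval, for MS023 minus DMSO on the left and PRMT1-KO minus isgCtrl on the right, where red points are called, filled grey points pass the adjusted p alone and dashed lines mark the fold threshold of 0.48. The 13 red points are all on the left and above 0, and no point on the right is filled.

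At the translocon, 2 of 9 genes were called and 4 passed the adjusted p at any size of difference. SEC61A1 (chr3:128051641-128071705, plus strand) encodes the channel itself. SEC61A1 read 137, 137 and 142 TPM in the 3 DMSO samples and 270.1, 271 and 298 TPM in the 3 MS023 samples. The groups were far apart, the ratio was 2.02 and the difference was 1.01 (SE 0.07, limma BH-adjusted p = 0.000185). Of the small channel subunits, SEC61B differed by 0.36 (SE 0.06, limma BH-adjusted p = 0.0045) and passed the adjusted p but not the fold threshold. SEC61G differed by 0.23 (SE 0.08, limma BH-adjusted p = 0.0551) and did not pass. SEC61G was the most abundant member, at 1631 ± 108 TPM in DMSO. SEC62 and SEC63, which assist import of some precursors, differed by 0.29 and 0.10 and did not pass.

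The SSR genes encode the translocon-associated protein complex. SSR2 rose from 736 ± 7.03 TPM to 1093 ± 29.6 TPM, a difference of 0.57 (SE 0.06, limma BH-adjusted p = 0.000719), and it was under the fold threshold at 0.47 after quantile normalization. SSR4 differed by 0.26 (SE 0.06, limma BH-adjusted p = 0.0154) and passed the adjusted p only. SSR1 and SSR3 differed by 0.02 and -0.03, with intervals of -0.19 to 0.23 and -0.18 to 0.12.

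Signal peptidase removes signal peptides from imported proteins. Its catalytic subunits are the paralogs SEC11A and SEC11C. SEC11C rose from 391 ± 7.80 TPM to 661 ± 13.7 TPM, a difference of 0.75 (SE 0.06, limma BH-adjusted p = 0.000279), and was the only 1 of 4 members called. SEC11A, from the wider list of pathway genes described later, lay the other way, at 155 ± 0.340 TPM in DMSO and 113 ± 6.29 TPM in MS023, without overlap. Its difference of -0.46 (SE 0.07, limma BH-adjusted p = 0.0024) passed the adjusted p but not the fold threshold. SPCS2 differed by 0.24 (SE 0.06, limma BH-adjusted p = 0.023) and passed the adjusted p alone. SPCS3 differed by 0.02 and SPCS1 by -0.19, the latter with all MS023 samples lower (limma BH-adjusted p = 0.0534).

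In transport between the ER and the Golgi, 2 of 5 genes were called and 3 passed the adjusted p at any size of difference. KDELR1 (chr19:48382575-48391551, minus strand) encodes a receptor that returns escaped chaperones such as BiP to the ER. KDELR1 read 84.3, 87.8 and 81.2 TPM in the 3 DMSO samples and 142, 150.4 and 149 TPM in the 3 MS023 samples. These groups did not overlap, the ratio was 1.74 and the difference was 0.79 (SE 0.06, limma BH-adjusted p = 0.000326). The paralogs KDELR2 and KDELR3 differed by 0.19 (SE 0.07, limma BH-adjusted p = 0.0524) and 0.04 (SE 0.21, limma BH-adjusted p = 0.878). KDELR3 was low, at 1.99 ± 0.662 TPM in DMSO. SEC23B, of the inner COPII coat, rose from 52.9 ± 2.89 TPM to 77.9 ± 5.25 TPM, a difference of 0.55 (SE 0.08, limma BH-adjusted p = 0.00262), and its coat partner SEC24D differed by 0.40 (SE 0.08, limma BH-adjusted p = 0.00744) and passed the adjusted p only.

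Among the genes named above for a promoter element, HSPA5, ERO1B and HERPUD1 were called higher with MS023, and ERO1B entered the test only through MS023. Over all members 28.3% were called higher, and whether calls go with the elements was not tested. HSP90B1, PDIA6, CRELD2, HYOU1, SDF2L1 and SSR4 passed the adjusted p alone, and KDELR3, SEC62 and SSR3 did not pass. DNAJB9 and SEC61A1, which rose by 1.89 and 1.01, had none of the searched letters in their windows.

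The PRMT1-KO cells were compared with isgCtrl to ask the same of losing PRMT1 itself. Of the 45 members tested, 0 were called by limma in either direction and 0 reached an adjusted p under 0.05. ERO1B was below the expression filter in both groups, at 0.0981 and 0.0536 TPM. Over all 12285 genes tested, 96 (0.781%) were called, 51 higher and 45 lower, which became 65 and 30 with median-ratio scaling and 65 and 28 with quantile normalization. At an unadjusted p under 0.05, 6 members passed, 4 higher and 2 lower, against 18.6% of all genes, and no alternative called a member. Member differences ran from -0.23 to 0.31 with a median of 0.04, beside -0.04 over all genes. Of the 45 members, 30 were above 0, beside 39.5% of all genes. In 12 members the PRMT1-KO samples were all above and in 4 all below the isgCtrl samples, against 9.11% and 17.6% of all genes.

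The members with the lowest p were HERPUD1, EDEM3 and DNAJB9. HERPUD1 read 32.9, 31.8 and 36.3 TPM in isgCtrl and 40.8, 43.6 and 41.9 TPM in PRMT1-KO, without overlap, and its difference of 0.31 (SE 0.07, limma BH-adjusted p = 0.099) did not pass. DNAJB9 read 8.45, 7.25 and 7.97 TPM in isgCtrl and 9.56, 10.2 and 9.36 TPM in PRMT1-KO, again without overlap, with a difference of 0.27 (SE 0.07, limma BH-adjusted p = 0.138). EDEM3 lay lower, at 21.4, 19.8 and 22.1 TPM in isgCtrl and 18.0, 17.3 and 18.1 TPM in PRMT1-KO, with a difference of -0.23 (SE 0.06, limma BH-adjusted p = 0.138). HERPUD1 and DNAJB9 therefore lay above their control in every sample, by amounts that did not pass the correction.

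The other named members did not pass either. HSPA5 read 142, 139.7 and 145 TPM in isgCtrl and 154, 159.9 and 156 TPM in PRMT1-KO, which did not overlap, and differed by 0.14 (SE 0.05, limma BH-adjusted p = 0.211). Its interval of 0.02 to 0.25 lies below the MS023 difference of 0.95. P4HB averaged 341 ± 4.55 TPM in isgCtrl and 364 ± 10.2 TPM in PRMT1-KO, a difference of 0.09 (SE 0.05, limma BH-adjusted p = 0.353). For SEC61A1 the means were 135 ± 2.26 and 137 ± 2.95 TPM, with an interval of -0.09 to 0.14. For KDELR1 they were 83.4 ± 4.78 and 81.6 ± 0.423 TPM, with an interval of -0.17 to 0.11. HSP90B1 differed by -0.06 (SE 0.05, limma BH-adjusted p = 0.533).

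None of the UPR sensors passed in PRMT1-KO cells. ERN1 read 2.26, 2.69 and 2.04 TPM in isgCtrl and 2.21, 2.49 and 2.64 TPM in PRMT1-KO. EIF2AK3 read 2.05, 2.52 and 2.16 TPM in isgCtrl and 3.17, 2.42 and 2.44 TPM in PRMT1-KO. ATF6 read 15.7, 15.2 and 16.1 TPM in isgCtrl and 14.9, 15.2 and 16.1 TPM in PRMT1-KO. The samples of the groups overlapped in all 3 genes. Intervals of the differences were -0.17 to 0.27 for ERN1, -0.07 to 0.43 for EIF2AK3 and -0.16 to 0.11 for ATF6.

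The difference between the effects was tested in 1 fit of all 12 samples, as the MS023 effect minus the PRMT1-KO effect, with a call at an adjusted p under 0.05. Of the 46 members, 23 had a higher effect with MS023 and 0 a lower one, against 14.4% and 21.2% of 13256 genes. Among all genes called, 40.3% were higher, which became 50.5% with median-ratio scaling and 48.6% with quantile normalization. The median member value was 0.30, beside -0.07 over all genes. By role, 9 of 10 chaperones and cofactors, 4 of 5 disulfide bond enzymes, 2 of 8 degradation genes, 2 of 5 sensors and related genes, 3 of 9 translocon genes, 1 of 4 signal peptidase genes and 2 of 5 transport genes were called. All 13 members called with MS023 were among the 23, but both tests use the same MS023 and DMSO samples. Members called for a rise with MS023 are favoured in the difference of the effects, so the overlap is a description. ERO1B, which passed the filter only through MS023 and could not be tested in PRMT1-KO cells, is in both counts. Without it, 12 of 45 members were called higher with MS023 and 22 of 45 in the difference of the effects, and the disulfide bond enzymes gave 1 of 4 and 3 of 4.

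The largest values were 1.68 (SE 0.10, limma BH-adjusted p = 1.87e-06) for HERPUD1 and 1.62 (SE 0.18, limma BH-adjusted p = 8.82e-05) for DNAJB9. ERO1B had 1.31, which its filter favoured and which is given as a description. SEC61A1 followed at 0.98 (SE 0.07, limma BH-adjusted p = 8.31e-06) and KDELR1 at 0.82 (SE 0.08, limma BH-adjusted p = 3.72e-05). HSPA5 had 0.82 (SE 0.06, limma BH-adjusted p = 7.96e-06) and HSP90B1 0.45 (SE 0.07, limma BH-adjusted p = 0.00105), so these chaperones also differed between the treatments. Of the sensors, ERN1 passed at 0.80 (SE 0.18, limma BH-adjusted p = 0.00682), while EIF2AK3 at 0.43 (SE 0.26, limma BH-adjusted p = 0.224) and ATF6 at -0.16 (SE 0.08, limma BH-adjusted p = 0.138) did not. MANF, at 0.27 (SE 0.08, limma BH-adjusted p = 0.0304), was the weakest call and lost it in 7 of 19 alternatives, each of which left out 1 library (DMSO replicate 3, MS023 replicate 1, isgCtrl replicate 2 or 3, or any PRMT1-KO replicate, with values of 0.22 to 0.28).

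A wider list of 53 genes of the same pathways, which holds none of the 46, was compared in the same way. It too was chosen with earlier results of these data known. With MS023, 14 rose and 0 fell (26.4% and 0%, beside the 11.6% and 19.3% of all genes). Whatever the size of the difference, 23 passed as higher and 6 as lower, beside 18.4% and 30.4% of all genes. Their median difference was 0.12. In PRMT1-KO cells 0 were called, beside 0.781% of all genes. The adjusted p alone was passed by 2, FKBP2 and TXNDC5, both higher (limma BH-adjusted p = 0.0484 and 0.0475). Over all 12285 genes, 83 passed it as higher and 74 as lower. For the difference of the effects, 22 were higher and 4 lower, beside 14.4% and 21.2% of all genes. The 4 lower ones were SEC11A, DERL3, SRP19 and PRDX4, at -0.45, -0.50, -0.37 and -0.25.

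**Figure D4:**
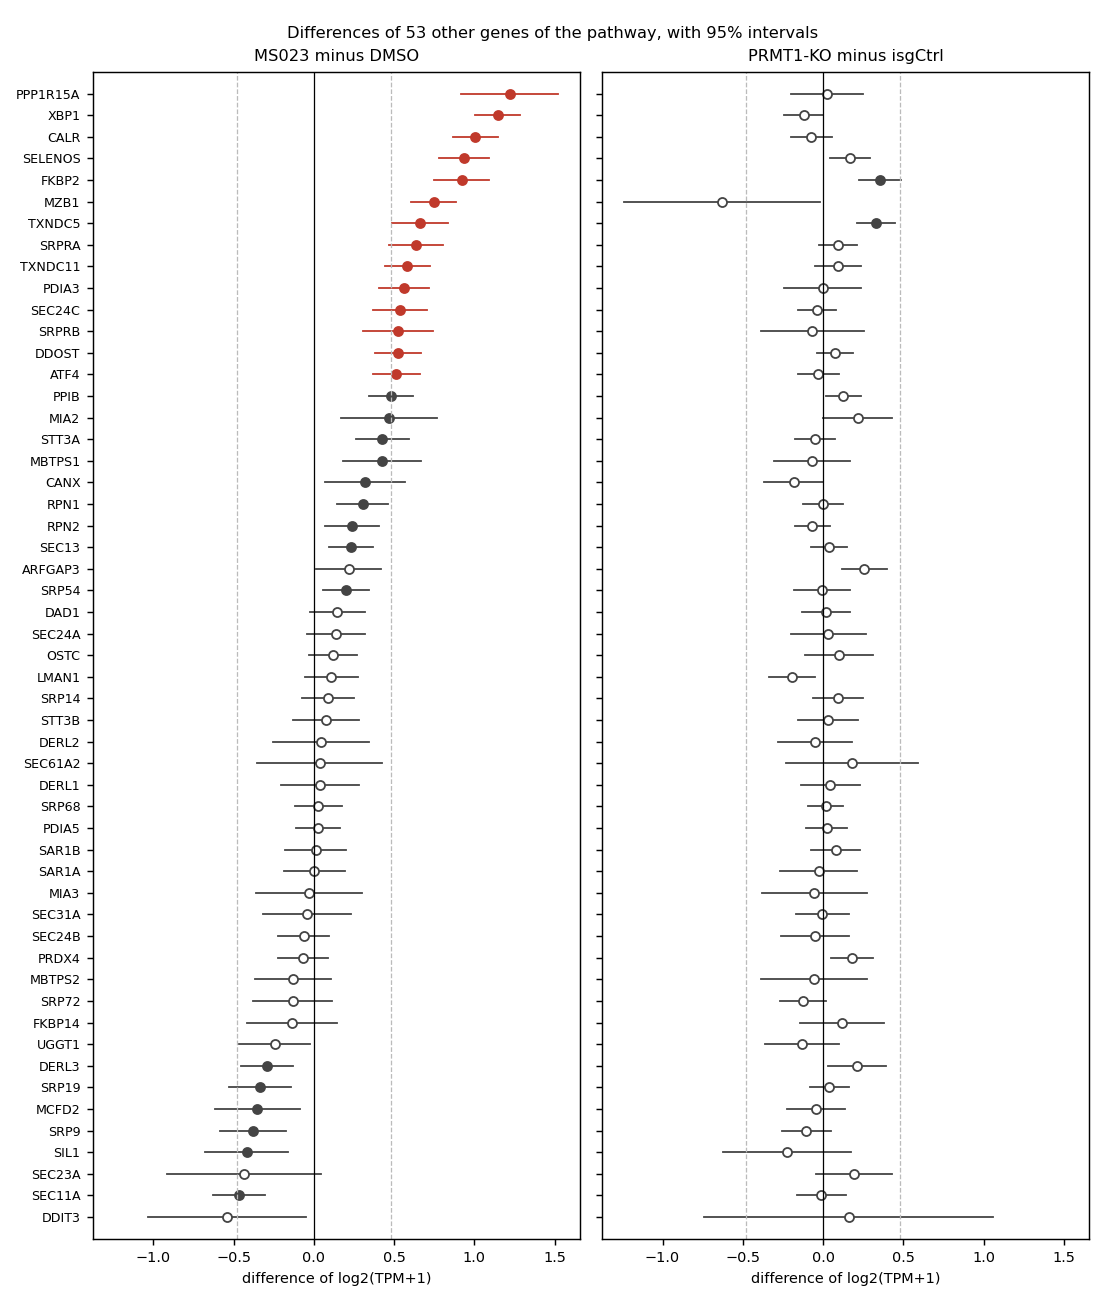
Difference of log2(TPM+1) (horizontal axis) of the 53 other pathway genes with 95% intervals, for MS023 minus DMSO on the left and PRMT1-KO minus isgCtrl on the right, with the same symbols as for the members. The 14 red points, led by PPP1R15A, XBP1 and CALR, are on the left and above 0.

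The transcription factors downstream of the sensors were among them. XBP1 (chr22:28794555-28800597, minus strand), whose spliced form activates many ER genes, rose. XBP1 read 219, 227 and 226 TPM in the 3 DMSO samples and 491, 498 and 499.6 TPM in the 3 MS023 samples, a ratio of 2.22 and a difference of 1.15 (SE 0.06, limma BH-adjusted p = 8.51e-05). The gene table does not separate spliced from unspliced XBP1. ATF4, translated when PERK phosphorylates eIF2, read 362, 377 and 352 TPM in DMSO and 513, 524 and 523 TPM in MS023, a difference of 0.51 (SE 0.06, limma BH-adjusted p = 0.00114). PPP1R15A, which encodes the phosphatase subunit GADD34 that reverses that phosphorylation, read 21.8, 26.8 and 19.1 TPM in DMSO and 53.9, 52.5 and 53.5 TPM in MS023, a difference of 1.22 (SE 0.12, limma BH-adjusted p = 0.000711). DDIT3, the stress-linked factor CHOP, was not called. DDIT3 read 19.4, 20.8 and 12.4 TPM in the 3 DMSO samples and 10.1, 11.7 and 12.7 TPM in the 3 MS023 samples. DMSO replicate 3 lay among the MS023 samples and the difference of -0.54 (SE 0.20, limma BH-adjusted p = 0.0672) did not pass, but without that replicate it was -0.76 and passed (limma BH-adjusted p = 0.00692).

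Of the other named genes, CALR encodes calreticulin, a lectin chaperone. CALR read 659, 651 and 664 TPM in the 3 DMSO samples and 1288, 1333 and 1345 TPM in the 3 MS023 samples, a difference of 1.00 (SE 0.06, limma BH-adjusted p = 0.000116). SELENOS acts in the degradation machinery. SELENOS read 57.1, 55.5 and 54.3 TPM in the 3 DMSO samples and 111, 108 and 102 TPM in the 3 MS023 samples, a difference of 0.94 (SE 0.06, limma BH-adjusted p = 0.000194). FKBP2 is a prolyl isomerase of the ER. FKBP2 read 195, 219 and 200.1 TPM in the 3 DMSO samples and 401, 379 and 383 TPM in the 3 MS023 samples, a difference of 0.92 (SE 0.07, limma BH-adjusted p = 0.000281). MZB1 is a plasma cell co-chaperone of immunoglobulin assembly. MZB1 read 107, 103 and 107 TPM in the 3 DMSO samples and 181, 175 and 176 TPM in the 3 MS023 samples, a difference of 0.75 (SE 0.06, limma BH-adjusted p = 0.000279). In all 4 genes the groups did not overlap. The level of MZB1 in the Cas9 lines was far lower, at 2.01 ± 0.375 TPM in isgCtrl and 1.01 ± 0.622 TPM in PRMT1-KO. In PRMT1-KO minus isgCtrl, XBP1 differed by -0.12 (SE 0.05, limma BH-adjusted p = 0.275), ATF4 by -0.03 (SE 0.05, limma BH-adjusted p = 0.793) and CALR by -0.07 (SE 0.05, limma BH-adjusted p = 0.503). PPP1R15A differed by 0.02 (SE 0.09, limma BH-adjusted p = 0.912) and DDIT3 by 0.16 (SE 0.37, limma BH-adjusted p = 0.846), and the direction of both turned when 1 library was left out.

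The 2 control groups also differed in these genes. isgCtrl lay below DMSO in 44 of 46 members, and the exceptions were CREB3L2 and WFS1. The median difference was -0.40, against 0.07 over all 12661 genes expressed, of which 42.5% were below 0. In 35 members every isgCtrl sample was below every DMSO sample and in 0 above, against 19.9% and 31.8% of all genes. The lowest value was -1.16 for SEC11C, at 175 ± 2.45 TPM against 391 ± 7.80 TPM. The groups differ in Cas9, lentivirus, puromycin and doxycycline, and possibly in culture and time, which cannot be told apart. The MS023 and PRMT1-KO effects were therefore measured from different starting levels.

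Within groups, members that varied with HSPA5 were described by Pearson's r of their deviations from the group means over the 12 samples. The closest were SEC61A1 at 0.746, HERPUD1 at 0.741, KDELR2 at 0.721, SSR3 at 0.696 and SEC24D at 0.648. Of the 45 members, 16 had a negative r, and the lowest were SEC61B at -0.653, SEC63 at -0.571 and SSR4 at -0.533. The points share libraries, so these values describe the samples only.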

How the data were processed

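RNA of 12 JJN3 samples was sequenced. By the Methods, the authors trimmed reads with Trimmomatic after FastQC, aligned them to hg38 with GENCODE V35 in the two-pass mode of STAR, quantified them with Salmon and deposited gene-level log2(TPM+1). These log2 values were used as deposited, and tool versions and library strand are not given in the sources used here. TPM fix the total of each sample, so depth was not recoverable and no count model was run. Of the 46 members, 7 share a name stem with annotated pseudogenes in the table (at most 2.43 TPM) and 3 with antisense genes (at most 0.217 TPM). Reads of near-identical copies and of antisense genes are uncertain.

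Groups came from the labels. Genes were kept if either group averaged more than 1 on that scale and were fitted with limma 3.58.1 in R 4.3.3 (eBayes without trend) on the 6 samples of a comparison, or on all 12 for the difference of effects with the filter passed in any group, and p-values were adjusted by Benjamini-Hochberg over all genes tested. Calls followed the thresholds of the Methods. By them 3986 genes were called with MS023 and 96 in PRMT1-KO. The paper reports far fewer with MS023 and a similar number in the knockout, and the reason was not tested. No samples were dropped, and the code was tested on simulated data. Single members were also given two-sided exact permutation tests. ± is the SD of 3 samples. The members and lists were chosen with earlier results of these data known. Full values are given for HSPA5, HSP90B1, the 3 sensors, the 8 members called with the largest MS023 change in each direction, the 3 lowest p in PRMT1-KO where none is called, the 5 largest differences of effects, and XBP1, ATF4, DDIT3 and the 6 largest called changes of the other list in each direction. Gene positions are from GENCODE v44 on GRCh38 and promoter windows from RefSeq. Alternatives were another pseudocount (0.1), no filter or a stricter one, eBayes with trend, median-ratio scaling or quantile normalization, a replicate block, all 12 samples in one fit, no fold threshold and each replicate left out.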

Additional observations from a re-analysis of the deposited data

Results flagged for a closer look

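The effect of MS023 against DMSO exceeded that of PRMT1-KO against isgCtrl, by a test of the difference itself (limma, 12 samples, Benjamini-Hochberg adjusted p under 0.05), in 23 of 46 members and in 7 of the named genes of the wider list. Over all genes 14.4% were higher and 21.2% lower. Most of the named genes of that list were chosen for their large rise with MS023, which favours a higher value here, and over its 53 genes 22 were higher and 4 (SEC11A, DERL3, SRP19 and PRDX4) lower. All values are differences of log2(TPM+1) differences. Among chaperones and cofactors they were HSPA5 0.82, HSP90B1 0.45, HYOU1 0.64, DNAJB9 1.62, DNAJB11 0.27, DNAJC3 0.68, SDF2L1 0.47, CRELD2 0.41 and MANF 0.27. Among disulfide bond enzymes they were PDIA4 0.42, PDIA6 0.26, P4HB 0.71 and ERO1B 1.31. Degradation genes gave HERPUD1 1.68 and ERLEC1 0.33, and the sensors and related genes gave ERN1 0.80 and CREB3L2 0.63. Translocon genes gave SEC61A1 0.98, SEC61B 0.29 and SSR2 0.48, signal peptidase gave SEC11C 0.65, and transport genes gave SEC23B 0.58 and KDELR1 0.82. In the wider list the values were XBP1 1.27, ATF4 0.54, PPP1R15A 1.19, CALR 1.08, SELENOS 0.77, FKBP2 0.57 and MZB1 1.38. ERO1B was tested here only because of its level in MS023. MZB1 started from 105 TPM in DMSO and 2.01 TPM in isgCtrl, so its effects were measured at very different levels. The comparisons also differ in their control group, Cas9, lentivirus, puromycin and doxycycline, which cannot be told apart here.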

How the results depend on the processing

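Members called higher with MS023 were 13, but 19 with quantile normalization, 22 with median-ratio scaling and 28 without a fold threshold. Over all 12903 genes the same counts were 1500, 1922, 1906 and 2378. Other pathway genes called higher were 14, but 23 without a fold threshold. Those called lower were 0, but 1 with a variance trend, 6 without a fold threshold and 0 to 1 with a replicate left out (DDIT3 without DMSO replicate 3, and SEC11A, SIL1 or SEC23A without MS023 replicate 1, 2 or 3). In PRMT1-KO, 2 other genes passed as higher without a fold threshold, and leaving out a replicate cut the 96 calls over all genes to between 2 and 21. Members with a lower difference of effects were 0, and 0 to 1 with a replicate left out (ERO1A without DMSO replicate 2 or MS023 replicate 3). Of the 13 members called, 12 kept their call in every alternative that tested them, and SSR2 lost it with quantile normalization (0.47). The 12 include ERO1B, which entered the main fit only through its MS023 level. Without a replicate the member calls were 13 to 17. MS023 replicate 2 left out added EIF2AK3, HYOU1, OS9 and SYVN1, DMSO replicate 3 HYOU1 and OS9, and DMSO replicate 2 SYVN1. In the difference of effects, MANF lost its call in 7 of 19 alternatives and EIF2AK3 gained one without MS023 replicate 2. Signs turned only in values that had not passed. With MS023, EDEM2 was 0.0084 with median-ratio scaling and 0.0675 with quantile normalization, EDEM3 0.0140 and PRMT1 -0.0298 with quantile normalization, and SSR3 0.0760 with median-ratio scaling. Without a replicate, EDEM1 ranged from -0.0674 to 0.1556, SSR1 from -0.0377 to 0.0897, SPCS3 from -0.0095 to 0.0345 and KDELR3 from -0.1209 to 0.2166. In PRMT1-KO, ATF6 was 0.0112 and 0.0125 and KDELR1 0.0092 and 0.0098 with median-ratio scaling and quantile normalization, and ATF4 0.0102 with median-ratio scaling. Without a replicate, ERN1 ranged from -0.0122 to 0.1268, KDELR1 from -0.0736 to 0.0081, DDIT3 from -0.1679 to 0.4227 and PPP1R15A from -0.0506 to 0.0966. The cause was not tested. With the replicate block, 13 members were higher with MS023, 0 in PRMT1-KO and 23 in the difference of effects, while over all genes the PRMT1-KO calls went from 96 to 0 and the adjusted p of PRMT1 to 0.149 (limma, Benjamini-Hochberg, 2054 genes at an unadjusted p under 0.05). The replicate numbers were checked on deviations from the group mean of each gene. Deviations of same-numbered samples correlated at 0.0213, 0.0732 and 0.102 in the MS023 comparison and -0.142, 0.0697 and -0.07 in the other. Their means were 0.0654 and -0.0475, beside -0.0327 and 0.0238 for samples of unlike number, so the numbers were not taken to pair them.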
